A study of Mus musculus with 6 samples.

Results

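The Hox genes of 3 mouse endothelial cell lines were examined on Affymetrix Mouse Gene 1.0 ST arrays. Members were the genes named Hoxa, Hoxb, Hoxc or Hoxd plus a number that had a probe set (a group of short probes summarised as 1 value) annotated to that gene alone. This gave 37 of 19936 measured genes, with 10 members in the HoxA cluster and 9 each in HoxB, HoxC and HoxD. No member had more than 1 such probe set. Hoxb8 is not a member, since its probe set is shared with Hoxb7, and that probe set is described separately. The lines came from embryonic stem cells and are labelled by the cadherin they express: VE- plus N-cadherin (VE+N), VE-cadherin (VE) or N-cadherin (N), with 2 arrays for each line. All were grown to long confluence and starved of serum for 18 to 20 h in medium with 1% albumin. The submitters label the 2 arrays of a line as biological replicates, without saying whether the extracts came from separate cultures, and each cadherin state is represented by 1 line. Each p-value is thus set against the spread between extracts of the same line, pooled over the 3 lines. A difference tied to the cadherin cannot be told apart from any other difference between the lines.

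Hox genes encode homeodomain transcription factors that give cells of the embryo their position along the head-to-tail axis. They lie in 4 clusters, and their order along the chromosome follows the order in which they are switched on, from the low-numbered, anterior genes to the high-numbered, posterior ones. Genes of the same number in different clusters are paralogs, descended from 1 ancestral gene. Adult and cultured endothelial cells keep a Hox pattern that reflects where in the body the vessel arose. Several members, HOXD3, HOXA3, HOXB3, HOXA9, HOXA5 and HOXD10 among them, are known from human endothelial cells as promoters or restrainers of blood vessel growth.

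The labels were checked before the lines were compared. Cdh2, the gene of N-cadherin, averaged a log2 signal of 6.69 in the line labelled VE+N, 5.86 in that labelled VE and 7.67 in that labelled N, and so followed the labels. Cdh5, the gene of VE-cadherin, averaged 7.10, 6.94 and 7.28 in the same lines, and none of its 3 differences passed the test. Signal of Cdh5 was therefore not higher in the lines labelled with VE-cadherin, which goes against those labels. The lines are called VE+N-labelled, VE-labelled and N-labelled, and each direction below rests on these labels. Of 20 endothelial marker genes 19 lay above the background level in every line, Kdr, Tek and Pecam1 among them, and Sox17 lay below it. Their 20 log2 signals summed to 202.62 to 204.39, 193.4 to 194.12 and 191.98 to 192.12 on the VE+N-, VE- and N-labelled arrays. Single markers were not level: Cldn5 averaged 11.68, 9.26 and 6.24 in these lines and Vwf 9.34, 6.61 and 5.21. Fli1 went the other way, at 9.99, 10.38 and 10.45. Mesenchymal markers moved with the lines: their 12 log2 signals summed to between 51.84 and 54.65 on the VE+N-labelled arrays, 79.44 and 80.52 on the VE-labelled arrays and 65.63 and 66.10 on the N-labelled arrays, with 6, 9 and 10 of the 12 above background. Mural cell markers were highest in the N-labelled line: their 11 log2 signals summed to 47.26 to 48.56, 55.7 to 56.94 and 60.28 to 60.51 on the VE+N-, VE- and N-labelled arrays, with 6, 9 and 8 above background. The mural receptor gene Pdgfrb averaged 4.19, 8.48 and 9.04 in these lines. Haematopoietic markers summed to 41.73 to 42.83, 44.0 to 44.48 and 45.09 to 45.27 over 9 genes, with 4, 4 and 5 above background, Ptprc and Spi1 below it, and Cd68 at 8.68, 9.99 and 11.56. Of 10 neural markers 2, 5 and 4 were above background. Of 12 stem cell markers 6, 5 and 6 were above background in the VE+N-, VE- and N-labelled lines. Pou5f1, Sox2 and Zfp42 were below it in every line, whereas Nanog, Lin28a, Fgf4 and Klf4 were above it, the last of these being a gene that endothelial cells also use. The part of other cell types in the Hox differences was not tested. In bulk RNA, fewer cells using a gene and less RNA per cell cannot be told apart.

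The background level was taken from 1178 olfactory and vomeronasal receptor genes, which endothelial cells are not known to use. Their 95th percentile lay between a log2 signal of 4.19 and 4.32 on the 6 arrays. By this measure 28 of the 37 Hox genes were above background on both arrays of the VE+N-labelled, the VE-labelled and the N-labelled line, against 65.4%, 66.9% and 66.2% of all genes. By cluster, 9 of 10 HoxA, 8 of 9 HoxB and 8 of 9 HoxD genes were above background in each line, and 3 of 9 HoxC genes. Whether the clusters differ was not tested. With the stricter 99th percentile as the level, 18, 18 and 21 members were above it in the same order of lines. The dim members included the posterior Hoxa11, Hoxb13, Hoxc10, Hoxc11, Hoxc13 and Hoxd12. Signals of different probe sets are not on a common scale, so levels are compared below only between lines for the same gene.

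**Figure D1:**
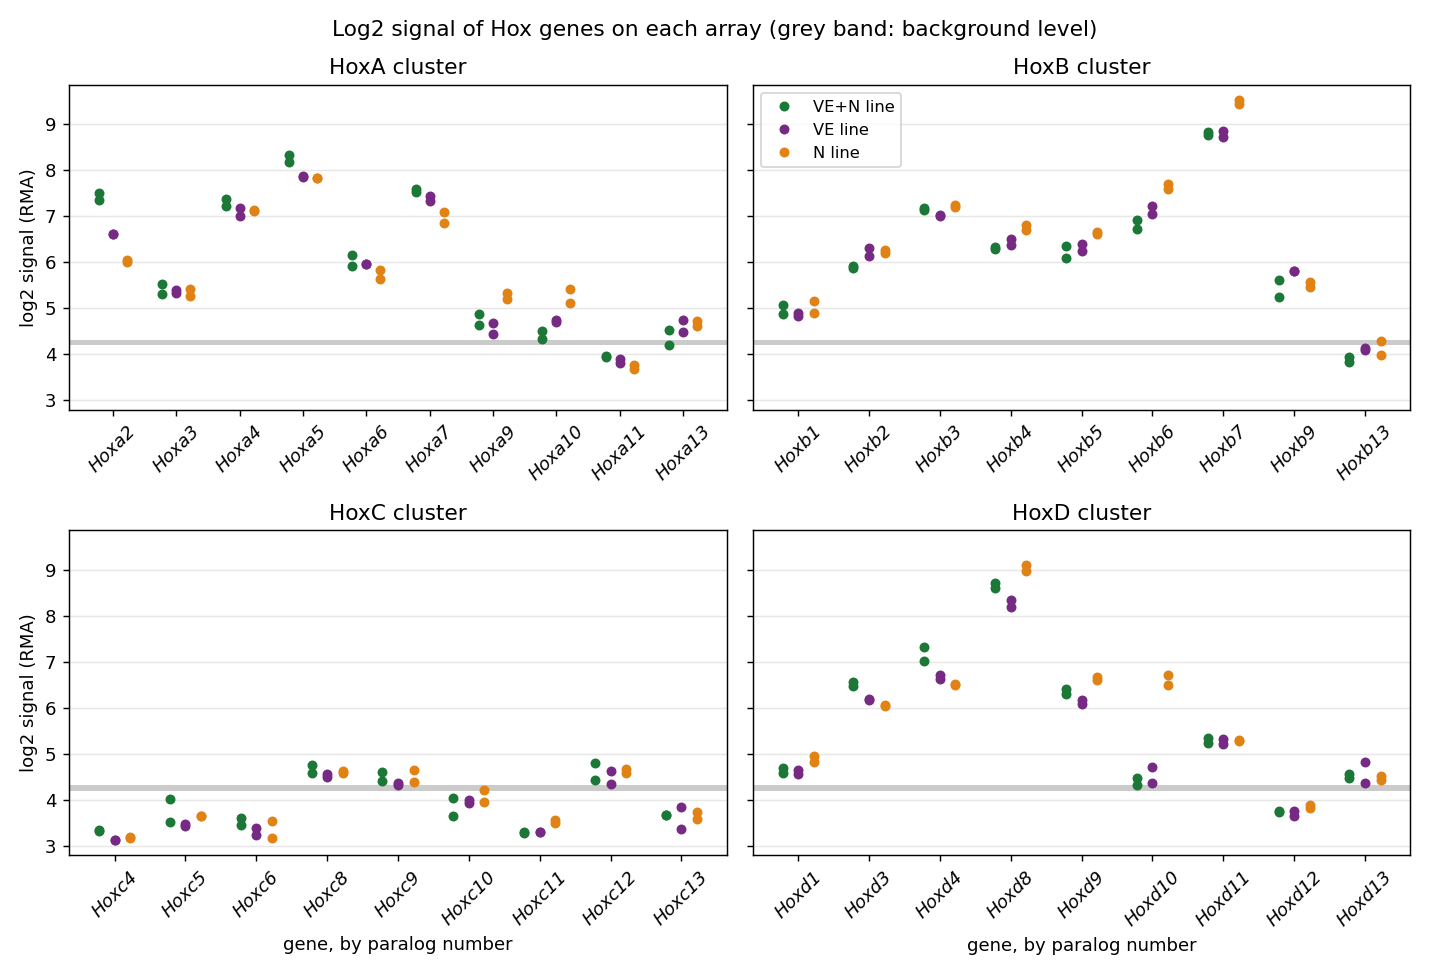
Log2 signal (vertical axis) of each of the 37 Hox genes on each of the 6 arrays, 1 panel for each cluster, with genes ordered by paralog number and lines by colour. The grey band spans the background level of 4.19 to 4.32. Most HoxC genes lie in or below the band, Hoxa2 is highest in the VE+N-labelled line, and Hoxd10 is far higher in the N-labelled line than in the others.

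Against the N-labelled line, Hox genes differed in both directions. In the VE-labelled line 2 members were higher, Hoxa2 and Hoxa7, and 7 were lower, Hoxa9, Hoxa10, Hoxb6, Hoxb7, Hoxd8, Hoxd9 and Hoxd10. In the VE+N-labelled line 5 were higher, Hoxa2, Hoxa5, Hoxa7, Hoxd3 and Hoxd4, and 7 were lower, Hoxa9, Hoxa10, Hoxb4, Hoxb6, Hoxb7, Hoxd8 and Hoxd10. Thus 9 of 37 passed in VE minus N and 12 of 37 in VE+N minus N, at an adjusted p below 0.05 in limma, a linear model with moderated variances fitted over all 19936 genes. Over all genes the shares called were 15.4% and 19.1%, against 24.3% and 32.4% of Hox genes. By direction, all genes gave 8.46% higher and 6.99% lower in VE minus N, and 10.2% higher and 8.91% lower in VE+N minus N. The arrays of both lines did not overlap, on the higher side, for 8 members in VE minus N (26.0% of all genes) and 9 in VE+N minus N (27.6% of all genes), and on the lower side for 18 (31.2%) and 16 (27.5%). The median Hox difference was −0.08 in VE minus N and −0.07 in VE+N minus N on the log2 scale, beside −0.0215 and −0.00443 over all genes. Both comparisons share the N-labelled arrays and are not independent.

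The counts depend on the small number of arrays. The 9 calls in VE minus N became 4 when N replicate 1 was left out and 5 when N replicate 2 or either VE array was. The 12 calls in VE+N minus N became 7 without N replicate 1 and 6 without N replicate 2. Median centring of the arrays, which lowers each VE minus N difference by 0.108, gave 1 higher and 10 lower Hox genes there in place of 2 and 7, while VE+N minus N kept its counts of 5 and 7.

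By position, no posterior gene (paralog groups 9 to 13) passed as higher in either comparison, and all calls among these 16 genes were lower, 4 in VE minus N and 3 in VE+N minus N. Of the 11 anterior genes (groups 1 to 4), 1 was higher and 0 lower in VE minus N, and 3 were higher and 1 lower in VE+N minus N. The 10 central genes (groups 5 to 8) split, with 1 higher and 3 lower in VE minus N and 2 higher and 3 lower in VE+N minus N. The median difference of the anterior, central and posterior genes was −0.02, −0.14 and −0.13 in VE minus N and 0.07, 0.10 and −0.18 in VE+N minus N. Called in VE minus N were 1 of 11 anterior, 4 of 10 central and 4 of 16 posterior genes, beside 15.4% of all genes. In VE+N minus N these counts were 4, 5 and 3, beside 19.1%. Above background in each line were 10 anterior, 8 central and 10 posterior genes. Above the 99th percentile were 8 anterior and 7 central genes in each line. For posterior genes this count was 3, 3 and 6 in the VE+N-, VE- and N-labelled lines. Whether the classes differ from one another, or how far low signal limits their calls, was not tested.

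**Figure D2:**
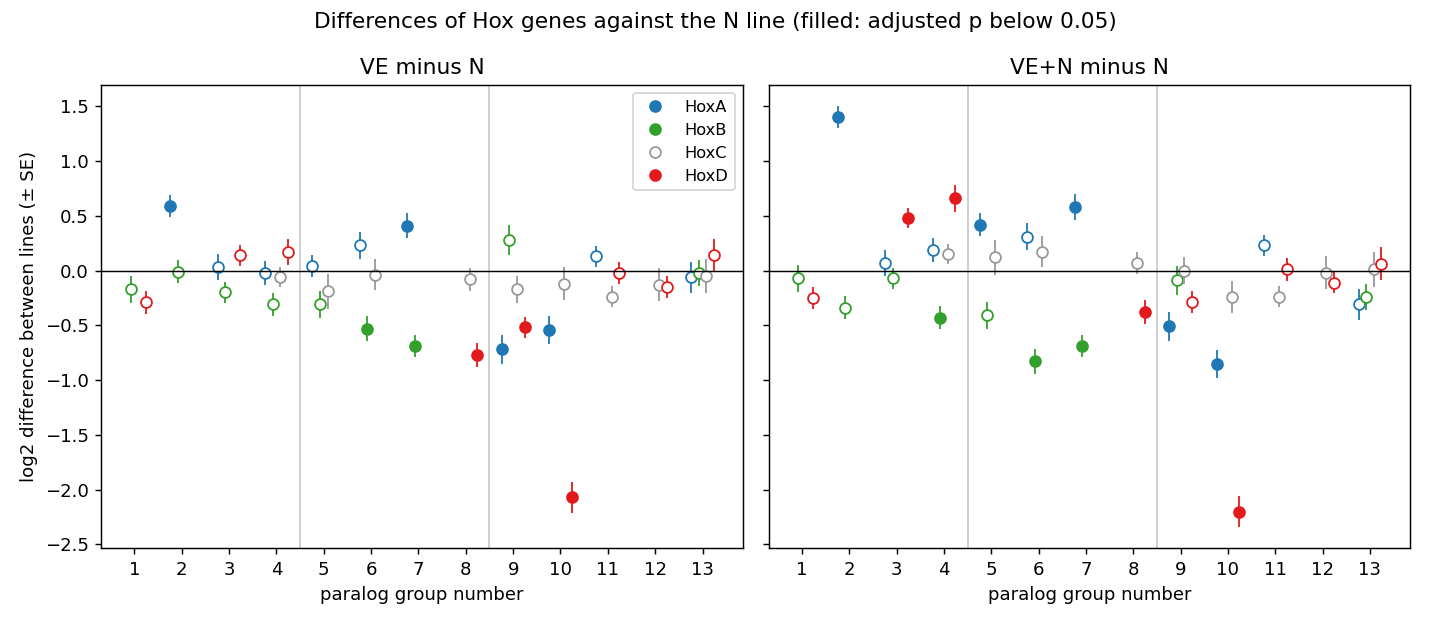
Log2 difference (vertical axis, ± SE) of each Hox gene from the N-labelled line, by paralog group number (horizontal axis) and cluster (colour), for VE minus N at left and VE+N minus N at right. Filled points passed at an adjusted p below 0.05, and vertical lines part the anterior, central and posterior genes. Called HoxA genes lie above 0 at low numbers and below it at high numbers in both panels. Called HoxD genes do so at right only, and at left all lie below 0. Called HoxB genes lie below 0, and no HoxC gene was called.

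HoxD held the largest difference. Hoxd10, a posterior gene whose product restrains vessel growth in human endothelial cells, had log2 signals of 4.47 and 4.33 on the VE+N-labelled arrays, 4.36 and 4.71 on the VE-labelled arrays and 6.50 and 6.70 on the N-labelled arrays. It was high only on the N-labelled arrays, and the values of the other lines overlapped each other. The log2 difference was −2.07 ± 0.143 (SE) in VE minus N (adjusted p = 5.73e-05), a 4.19-fold lower signal, and −2.20 ± 0.143 in VE+N minus N (adjusted p = 2.67e-05), 4.59-fold lower. It passed under all 16 alternative settings in both comparisons. In the VE+N- and VE-labelled lines the signal lay above the 95th percentile of the receptor genes and below their 99th, which was 4.95 to 5.13 there. VE+N minus VE was −0.13, with a 95% interval from −0.46 to 0.20 (adjusted p = 0.656). Hoxd10 was the only Hox gene over 2-fold lower in either comparison with the N-labelled line, beside 1.23% and 2.16% of all genes.

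The genes on either side of Hoxd10 behaved differently. Hoxd11, whose annotated span overlaps that of Hoxd10, ran from 5.21 to 5.35 over all 6 arrays and did not pass in any comparison. Hoxd9, which with Hoxd10 patterns limb and lower spine, had 6.3 and 6.4 in the VE+N-labelled, 6.16 and 6.08 in the VE-labelled and 6.67 and 6.61 in the N-labelled line. Its 3 pairs of arrays did not overlap, and VE minus N was −0.52 ± 0.0996 (adjusted p = 0.00976). That call was lost without N replicate 1 (adjusted p = 0.0836), N replicate 2 (adjusted p = 0.0550) or VE replicate 2 (adjusted p = 0.0773), and VE+N minus N was −0.29 (adjusted p = 0.0842). Hoxd8, reported in human lymphatic endothelial cells, had 8.60 and 8.71, 8.34 and 8.19, and 8.97 and 9.10 in the VE+N-, VE- and N-labelled lines, again without overlap. VE minus N was −0.77 ± 0.109 (adjusted p = 0.00227) and VE+N minus N −0.38 ± 0.109 (adjusted p = 0.0443). The VE+N minus N call was lost on leaving out any 1 of the 6 arrays (adjusted p from 0.0644 to 0.251) or with the replicate number as a block (adjusted p = 0.0576).

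In Hoxd3 and Hoxd4 the N-labelled line was the lowest instead of the highest. In the most anterior HoxD gene, Hoxd1, it was the highest. Hoxd1 averaged 4.64, 4.6 and 4.89 in the VE+N-, VE- and N-labelled lines, at −0.25 in VE+N minus N and −0.29 in VE minus N (adjusted p = 0.151 and 0.114). Hoxd4, a hindbrain gene known to respond to retinoic acid, had 7.01 and 7.31 in the VE+N-labelled, 6.63 and 6.72 in the VE-labelled and 6.51 and 6.49 in the N-labelled line. Hoxd3, known in human endothelial cells for raising integrins and proteases of invading vessels, had 6.48 and 6.55, 6.19 and 6.17, and 6.05 and 6.03 in the same lines. In both genes the arrays fell into 3 separate pairs, with the VE+N-labelled line highest. VE+N minus N was 0.66 ± 0.122 for Hoxd4 (adjusted p = 0.00690) and 0.48 ± 0.0951 for Hoxd3 (adjusted p = 0.00974). Hoxd4 was also higher in VE+N minus VE, by 0.49 ± 0.122 (adjusted p = 0.0427), and Hoxd3 there gave 0.34 (adjusted p = 0.0676). The VE minus N values, 0.17 with an interval from −0.11 to 0.45 and 0.14 with one from −0.08 to 0.36, did not pass. The annotated spans of Hoxd3 and Hoxd4 overlap, so these probe sets may share transcripts. The Hoxd3 call was lost without N replicate 1 (adjusted p = 0.0657) or N replicate 2 (adjusted p = 0.0764). The Hoxd4 call in VE+N minus VE was lost without either N array (adjusted p = 0.0725 each), VE replicate 1 (adjusted p = 0.213), VE replicate 2 (adjusted p = 0.149) or VE+N replicate 2 (adjusted p = 0.139).

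The sequences before the starts of 3 HoxD genes are given because these genes lie in 1 cluster, with Hoxd10 and Hoxd8 lower and Hoxd4 higher in VE+N minus N. They are the 250 bases upstream of the RefSeq start on GRCm38.p6, all on the plus strand, at chr2:74691641-74691890, chr2:74704365-74704614 and chr2:74721728-74721977. Capitals mark matches on either strand to CCAAT (the CCAAT box), TATAAA (the TATA box), AGGTCA (a nuclear receptor half-site), TGATTNAT (the composite PBX and Hox element) or TTTATG (a Cdx element). No overlap between motifs was found in them.
Hoxd10: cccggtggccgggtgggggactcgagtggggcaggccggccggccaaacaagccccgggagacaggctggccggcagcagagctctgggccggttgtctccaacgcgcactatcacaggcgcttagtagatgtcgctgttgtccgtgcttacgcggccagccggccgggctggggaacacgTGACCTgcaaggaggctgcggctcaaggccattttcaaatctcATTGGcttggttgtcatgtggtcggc
Hoxd8: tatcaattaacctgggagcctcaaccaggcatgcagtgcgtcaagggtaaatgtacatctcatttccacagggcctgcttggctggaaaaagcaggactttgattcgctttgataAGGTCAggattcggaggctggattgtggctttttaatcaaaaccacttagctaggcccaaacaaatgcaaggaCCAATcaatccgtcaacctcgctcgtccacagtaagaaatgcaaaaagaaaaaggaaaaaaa
Hoxd4: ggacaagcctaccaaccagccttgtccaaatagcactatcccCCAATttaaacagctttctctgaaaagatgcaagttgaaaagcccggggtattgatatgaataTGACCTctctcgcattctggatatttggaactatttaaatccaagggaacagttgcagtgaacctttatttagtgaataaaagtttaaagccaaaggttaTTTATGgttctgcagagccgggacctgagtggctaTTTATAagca

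The 3 upstream sequences differ in composition. That of Hoxd10 holds 20 CpG dinucleotides at 65.6% G and C, that of Hoxd8 holds 6 at 44.4%, and that of Hoxd4 holds 3 at 40.4%. All hold CCAAT and AGGTCA on 1 strand or the other, and Hoxd4 also holds TTTATG and, in reverse, TATAAA. Promoters were listed for 21 of the 37 members, 23 in all, with a median of 13 CpG against 6 over all 32851 listed promoters of the same length. AGGTCA was found in 26.1% of the Hox promoters against 14% of all, CCAAT in 56.5% against 33.8%, TGATTNAT in 8.70% against 2.82%, TTTATG in 17.4% against 10.8% and TATAAA in 13% against 12.4%. These matches are a description of the letters and show no binding.

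In HoxA the anterior and central calls were higher and the posterior ones lower than in the N-labelled line. HoxD differed in that its called central gene, Hoxd8, was lower. Hoxa2, which sets the identity of the second pharyngeal arch and hindbrain, had 7.34 and 7.5 on the VE+N-labelled, 6.62 and 6.61 on the VE-labelled and 6.00 and 6.04 on the N-labelled arrays. All 3 lines were apart: VE+N minus N was 1.4 ± 0.102 (adjusted p = 5.34e-05), a 2.63-fold higher signal, VE minus N was 0.59 ± 0.102 (adjusted p = 0.00593) and VE+N minus VE was 0.80 ± 0.102 (adjusted p = 0.00206). The first held under all 16 alternatives. The second was lost without N replicate 1, where it was 0.57, and with treat, a test against a 1.5-fold change. The third was lost with treat and with the analysis of variance of the study's methods. Hoxa2 was the only Hox gene over 2-fold higher in either comparison with the N-labelled line, beside 2.58% of all genes in VE minus N and 2.45% in VE+N minus N.

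The 250 bases before Hoxa2 lie at chr6:52164832-52165081 of GRCm38.p6 on the minus strand and are shown because this gene had the largest rise. The capitals mark the same motifs as above: CCAAT at 4 places and a reverse match to TGATTNAT.
Hoxa2: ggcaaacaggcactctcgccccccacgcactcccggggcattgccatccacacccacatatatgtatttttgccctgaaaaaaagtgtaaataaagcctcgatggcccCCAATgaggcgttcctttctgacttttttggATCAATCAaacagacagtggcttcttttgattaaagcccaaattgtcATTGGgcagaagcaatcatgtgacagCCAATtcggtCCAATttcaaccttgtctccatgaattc

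Among central HoxA genes, Hoxa5 and Hoxa7 passed. Hoxa5, described in human endothelial cells as keeping vessels at rest, had 8.17 and 8.33 in the VE+N-labelled, 7.88 and 7.86 in the VE-labelled and 7.83 and 7.82 in the N-labelled line. Both VE+N-labelled arrays stood above the other 4: VE+N minus N was 0.42 ± 0.102 (adjusted p = 0.0225), VE+N minus VE 0.38 (adjusted p = 0.0563), and VE minus N 0.04 with an interval from −0.19 to 0.28. The call was lost without N replicate 1 (adjusted p = 0.118), N replicate 2 (adjusted p = 0.125) or VE+N replicate 2 (adjusted p = 0.0802). Hoxa7, a gene of trunk patterning, had 7.58 and 7.52, 7.32 and 7.44, and 7.09 and 6.85 in the VE+N-, VE- and N-labelled lines. Its lines did not overlap, with VE+N minus N at 0.58 ± 0.116 (adjusted p = 0.00992), lost without N replicate 2 (adjusted p = 0.0875). VE minus N was 0.41 ± 0.116 at an adjusted p = 0.04997 and passed in 4 of 16 alternatives. It did not pass with any 1 of the 6 arrays left out (adjusted p from 0.0615 to 0.316), with the replicate block (adjusted p = 0.0614), or with median centring, where it was 0.30 (adjusted p = 0.109).

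At the posterior end of HoxA the N-labelled line was the highest. Hoxa9, which in human endothelial cells and their progenitors supports genes such as KDR, NOS3 and EPHB4, had 4.88 and 4.64 in the VE+N-labelled, 4.44 and 4.67 in the VE-labelled and 5.20 and 5.34 in the N-labelled line. VE minus N was −0.72 ± 0.130 (adjusted p = 0.00753) and VE+N minus N −0.51 ± 0.130 (adjusted p = 0.0277), and the VE+N- and VE-labelled arrays overlapped. The VE minus N call was lost without N replicate 2 (adjusted p = 0.0564) or VE replicate 1 (adjusted p = 0.0704). The VE+N minus N call was lost without N replicate 1 (adjusted p = 0.0717), N replicate 2 (adjusted p = 0.156) or VE+N replicate 2 (adjusted p = 0.127). Hoxa10, a regulator of blood cell development and the uterus, had 4.5 and 4.33, 4.75 and 4.69, and 5.41 and 5.12 in the VE+N-, VE- and N-labelled lines. The N-labelled arrays were again above all others: VE+N minus N was −0.85 ± 0.127 (adjusted p = 0.00227) and VE minus N −0.54 ± 0.127 (adjusted p = 0.0235). The VE minus N call was lost without N replicate 1 (adjusted p = 0.173), VE replicate 1 (adjusted p = 0.1) or VE replicate 2 (adjusted p = 0.139). Both genes were dim, above the 99th percentile of the receptor genes in the N-labelled line and below it in the others.

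All HoxB calls against the N-labelled line were lower, 2 in VE minus N and 3 in VE+N minus N. In the called HoxB genes the N-labelled line was the highest, as it was in the summed mural and the summed haematopoietic markers. Not every member of either list followed its sum. Cd68 averaged 8.68, 9.99 and 11.56 in the VE+N-, VE- and N-labelled lines. Runx1, of the same haematopoietic list, averaged 6.09, 7.15 and 5.94, and the mural marker Notch3 averaged 4.68, 7.12 and 6.81. The part of these cell types was not tested. All 9 members had a negative difference in VE+N minus N and 8 of 9 in VE minus N, with medians of −0.34 and −0.20. Hoxb7, known in human tumours as an inducer of the angiogenic factor FGF2, had 8.83 and 8.76 on the VE+N-labelled, 8.84 and 8.73 on the VE-labelled and 9.53 and 9.43 on the N-labelled arrays. The VE+N- and VE-labelled arrays coincided below the N-labelled ones, with VE minus N at −0.69 ± 0.102 (adjusted p = 0.00282), VE+N minus N at −0.69 ± 0.102 (adjusted p = 0.00230) and VE+N minus VE at 0.00, with an interval from −0.23 to 0.24. Both calls were kept without any 1 array. The probe set shared by Hoxb7 and Hoxb8, which is no member, gave 6.45 and 6.15, 6.80 and 6.48, and 7.28 and 7.49 in the VE+N-, VE- and N-labelled lines, and was not tested.

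Hoxb6 and Hoxb4 followed the same order of lines. Hoxb6, a gene of early mesoderm and blood progenitors, had 6.73 and 6.92 in the VE+N-labelled, 7.04 and 7.21 in the VE-labelled and 7.60 and 7.70 in the N-labelled line. VE+N minus N was −0.83 ± 0.116 (adjusted p = 0.00164) and VE minus N −0.53 ± 0.116 (adjusted p = 0.0181). The VE minus N call was lost on leaving out any 1 of the 4 arrays compared (adjusted p from 0.0516 to 0.129). Hoxb4, which expands blood stem cells when overexpressed, had 6.29 and 6.34, 6.50 and 6.38, and 6.69 and 6.80 in the VE+N-, VE- and N-labelled lines. The arrays of the 3 lines did not overlap, and VE+N minus N was −0.43 ± 0.103 (adjusted p = 0.0229). This call was lost on leaving out any 1 of the 4 arrays compared (adjusted p from 0.0559 to 0.165), and VE minus N was −0.31 (adjusted p = 0.0926). Hoxb5, a gene that activates KDR in human endothelial precursors, missed the threshold at −0.41 in VE+N minus N (adjusted p = 0.0501) and −0.31 in VE minus N (adjusted p = 0.143).

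**Figure D3:**
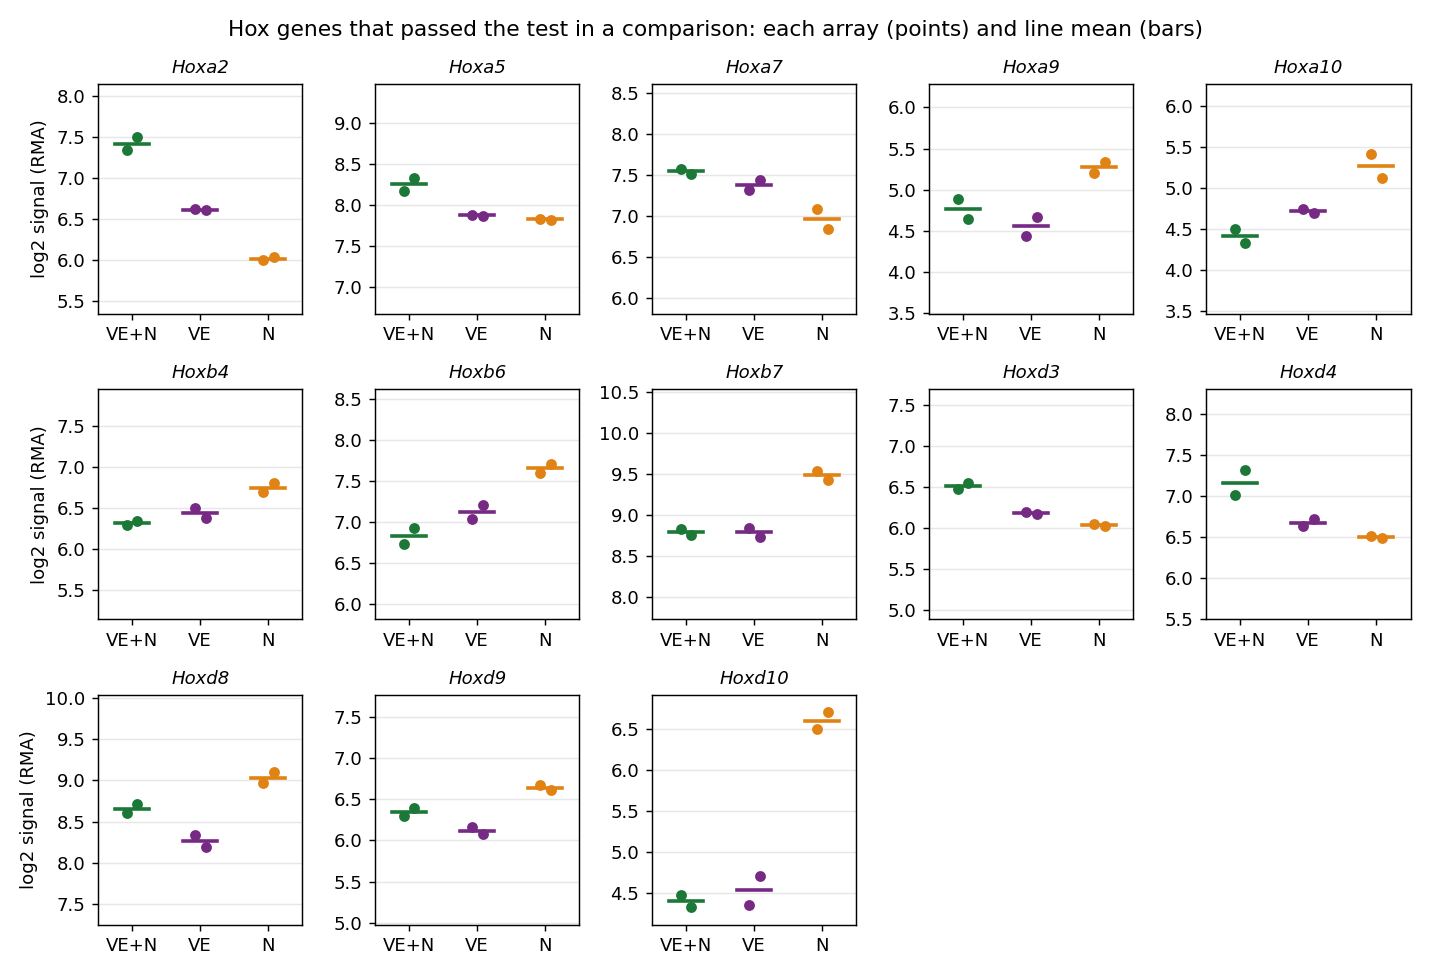
Log2 signal (vertical axis) of the 13 Hox genes that passed the test in a comparison, with a point for each array and a bar at each line's mean; every panel spans 2.8 log2 units. Hoxa2, Hoxa5, Hoxa7, Hoxd3 and Hoxd4 peak on the VE+N-labelled arrays; the other 8 genes peak on the N-labelled arrays.

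HoxC gave no call, though Hoxc11 passed as lower in VE minus N with median centring. All 9 members, from Hoxc4 to Hoxc13, lay between 3.12 and 4.79 on every array, and each differed by at most 0.59 between its lowest and highest array. Only Hoxc8, Hoxc9 and Hoxc12 were above background. At an unadjusted p below 0.05, 1 of 9 passed in VE minus N, 1 in VE+N minus N and 0 in VE+N minus VE. Over all 19936 genes the counts were 5396, 6047 and 4636. The standard errors of the differences were 0.0936 to 0.158 in HoxC, beside 0.0942 to 0.151 in the other Hox genes.

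Outside HoxC, 15 members passed in no comparison: Hoxa3, Hoxa4, Hoxa6, Hoxa11, Hoxa13, Hoxb1, Hoxb2, Hoxb3, Hoxb5, Hoxb9, Hoxb13, Hoxd1, Hoxd11, Hoxd12 and Hoxd13. Each spanned between 0.14 and 0.57 log2 units over the 6 arrays. For comparison, the arrays of 1 line differed by a median of 0.156, 0.0838 and 0.0945 over the Hox genes in the VE+N-, VE- and N-labelled lines. Among them Hoxa4, between the called Hoxa2 and Hoxa5, had intervals from −0.07 to 0.44 in VE+N minus N and −0.28 to 0.23 in VE minus N. The span of Hoxa3 overlaps those of Hoxa4, Hoxa5 and Hoxa6, and that of Hoxb3 overlaps Hoxb4, so transcripts of these genes may not be separable.

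Directly compared, the VE+N-labelled line had higher signal than the VE-labelled line in 2 Hox genes and lower in 0, the 2 being Hoxa2 and Hoxd4. This is 5.41% of the members, beside 10.1% of all genes (4.29% higher and 5.84% lower). The median Hox difference was 0.08, against 0.0294 over all genes. At an unadjusted p below 0.05 the count was 9 of 37, beside 4636 of all 19936 genes. The arrays did not overlap for 15 higher and 6 lower members, beside 28.6% and 21.0% of all genes, and 0 members passed with a change over 2-fold, beside 0.547% higher and 1.97% lower. With median centring, which raises these differences by 0.0879, 5 genes were higher and 0 lower, and without VE+N replicate 1 it was 4 and 0. With any 1 of the N or VE arrays left out only 1 gene was called, and without VE+N replicate 2 it was 1 higher and 1 lower.

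Hox proteins bind DNA together with cofactors of the TALE family (Pbx, Meis and Pknox), which sharpen their choice of sites. Of 8 measured TALE genes, 0 were higher and 1 lower in VE minus N, and 1 higher and 1 lower in VE+N minus N. These are 12.5% and 25% of the list, beside 15.4% and 19.1% of all genes. Meis2 had 9.95 and 10.09 in the VE+N-labelled, 8.88 and 8.99 in the VE-labelled and 8.75 and 8.77 in the N-labelled line, with VE+N minus N at 1.26 ± 0.104 (adjusted p = 0.000102) and VE+N minus VE at 1.09 ± 0.104 (adjusted p = 0.000529). Meis3 went the other way, with 5.35 and 5.14, 5.76 and 5.43, and 6.23 and 6.44 in the same lines. VE+N minus N was −1.08 ± 0.146 (adjusted p = 0.00138) and VE minus N −0.74 ± 0.146 (adjusted p = 0.0116), the second lost without N replicate 2 (adjusted p = 0.0807) or VE replicate 2 (adjusted p = 0.0925). Meis1, a frequent partner of Hoxa9, ran from 7.30 to 7.46 over all 6 arrays. Pknox2 was lower in VE+N minus VE, at −0.53 (adjusted p = 0.0301), but averaged 3.55 and 4.07 there, not above background on both arrays of either line, and the call was lost on leaving out any array but VE replicate 2 (adjusted p from 0.0511 to 0.174).

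Hox clusters are opened from their anterior end by retinoic acid receptors and Cdx factors, while Gdf11 and its relatives act on the posterior genes. Of 17 measured genes of this upstream list, 5 were higher and 0 lower in VE minus N, and 4 were higher and 0 lower in VE+N minus N. Among all genes 8.46% were higher and 6.99% lower in VE minus N, and 10.2% higher and 8.91% lower in VE+N minus N. The retinoic acid receptor gene Rarb had 8.03 and 8.33 in the VE+N-labelled, 7.44 and 7.41 in the VE-labelled and 5.1 and 4.8 in the N-labelled line. The order of its line means, VE+N over VE over N, was also that of Gdf11, Tcf7l1, Rxra and Meis2. Among the called Hox genes it was that of Hoxa2, Hoxa5, Hoxa7, Hoxd3 and Hoxd4, though Hoxa5, Hoxd3 and Hoxd4 did not pass in VE minus N. It was also that of Hoxa3, Hoxa6 and the posterior Hoxa11, which passed in no comparison. The share of all genes with this order was not counted. For Rarb, VE+N minus N was 3.23 ± 0.141 (adjusted p = 3.62e-06) and VE minus N 2.48 ± 0.141 (adjusted p = 2.15e-05). Gdf11, a secreted factor, averaged 8.55, 8.17 and 6.67 in the VE+N-, VE- and N-labelled lines, with VE+N minus N at 1.88 ± 0.115 (adjusted p = 1.90e-05) and VE minus N at 1.5 ± 0.115 (adjusted p = 9.51e-05). The Wnt pathway repressor gene Tcf7l1 averaged 8.88, 8.67 and 7.59, with differences of 1.29 and 1.08 (adjusted p = 9.05e-05 and 0.000315). Rxra, a partner receptor of the retinoic acid receptors, was at 0.82 and 0.52 (adjusted p = 0.000693 and 0.00829), the second lost on leaving out any 1 of the 4 arrays compared (adjusted p from 0.0508 to 0.0763). Cyp26b1, which breaks retinoic acid down, was higher in VE minus N by 0.61 (adjusted p = 0.00813), lost without N replicate 2 (adjusted p = 0.0712), VE replicate 1 (adjusted p = 0.0648) or VE replicate 2 (adjusted p = 0.0545). Of the Cdx genes, Cdx1 ran from 6.16 to 6.42 over all arrays, above background in every line, and was not called. Cdx2 was below background except on N replicate 2, at 4.3. Cdx4 and the retinoic acid synthesis gene Aldh1a2 were below background in every line. Whether any of these genes bears on the Hox differences was not tested.

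Polycomb proteins keep Hox genes silent and trithorax proteins keep them active. Of 28 measured Polycomb genes 6 were higher and 3 lower in VE minus N, and 5 higher and 3 lower in VE+N minus N, with medians of 0.02 and 0.05. The called shares were 32.1% and 28.6%, beside 15.4% and 19.1% of all genes. Eed, a core subunit of the histone H3 methylating complex, averaged 7.38, 7.40 and 6.75 in the VE+N-, VE- and N-labelled lines, with VE+N minus N at 0.63 ± 0.101 (adjusted p = 0.00334) and VE minus N at 0.66 ± 0.101 (adjusted p = 0.00349). With the mean of its probe sets the VE minus N value was 0.34 (adjusted p = 0.063). Jarid2, which recruits that complex, averaged 9.33, 9.32 and 8.65, with VE+N minus N at 0.68 ± 0.112 (adjusted p = 0.00384) and VE minus N at 0.67 ± 0.112 (adjusted p = 0.00512, and 0.0521 without VE replicate 2). Pcgf5, a subunit of the histone H2A ubiquitin ligase complex, was higher by 1.04 ± 0.0949 in VE minus N (adjusted p = 0.000233) and lower by a log2 difference of −0.82 ± 0.0949 in VE+N minus VE (adjusted p = 0.00136). Phf19, a further accessory protein of the methylating complex, was at 0.88 in VE minus N and 0.58 in VE+N minus N (adjusted p = 0.00119 and 0.00794, the second 0.0532 without N replicate 2). Rybp, of the ubiquitin ligase complex, was at −0.53 and −0.76 (adjusted p = 0.0197 and 0.00297), the first lost without N replicate 1 (adjusted p = 0.141), N replicate 2 (adjusted p = 0.0538) or VE replicate 1 (adjusted p = 0.138). Pcgf1 was lower in VE minus N, at −0.73 (adjusted p = 0.0129), lost without N replicate 2 (adjusted p = 0.0902) or VE replicate 2 (adjusted p = 0.103). Ezh2, the methyltransferase itself, was lower in VE+N minus VE, at −0.61 (adjusted p = 0.00863, and 0.082 without VE replicate 2).

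Of 18 trithorax genes 2 were higher and 1 lower in VE minus N, and 1 higher and 1 lower in VE+N minus N. These are 16.7% and 11.1% of the list, beside 15.4% and 19.1% of all genes. The lower one in both was Kdm6b, a demethylase that removes the Polycomb mark, at −0.45 and −0.44 (adjusted p = 0.0180 and 0.0168). In VE minus N that call was lost on leaving out any 1 of the 4 arrays compared (adjusted p from 0.0691 to 0.152), and in VE+N minus N without N replicate 1 (adjusted p = 0.144), N replicate 2 (adjusted p = 0.0624) or VE+N replicate 2 (adjusted p = 0.0544). Mllt3 was higher in VE minus N by 0.60 (adjusted p = 0.00491, and 0.053 without N replicate 1). Psip1 was higher there by 0.41 (adjusted p = 0.0306), lost on leaving out any 1 of the 4 arrays compared (adjusted p from 0.0925 to 0.215). Kmt2c was higher in VE+N minus N by 0.58 (adjusted p = 0.0394), lost on leaving out any array but VE+N replicate 1 (adjusted p from 0.0614 to 0.155). Of 5 genes listed as inhibitors of Hox function, Bcl6 was higher in VE minus N by 0.63 ± 0.110 (adjusted p = 0.00625, and 0.0550 without VE replicate 1), and 0 were called in VE+N minus N (1 at an unadjusted p below 0.05).

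**Figure D4:**
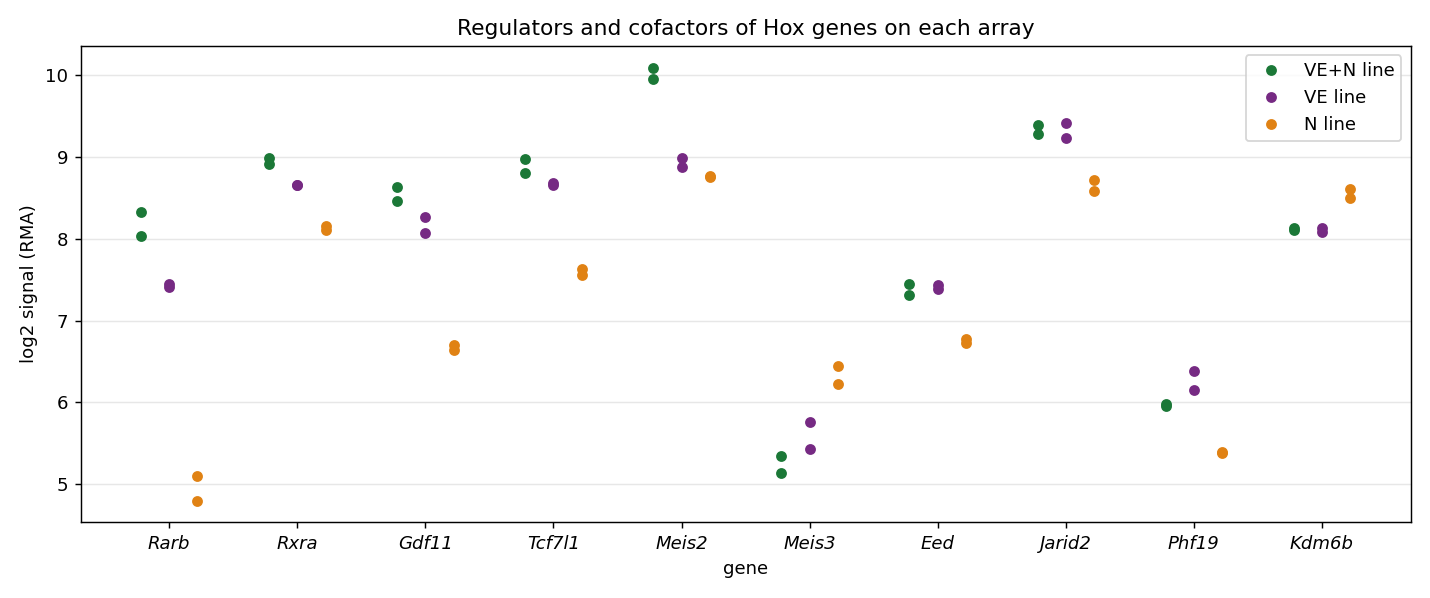
Log2 signal (vertical axis) of 10 regulators and cofactors of Hox genes on each array, coloured by line. Rarb, Gdf11 and Tcf7l1 are lowest in the N-labelled line, Meis2 stands highest in the VE+N-labelled line, and Meis3 and Kdm6b are highest in the N-labelled line.

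Other transcripts of the clusters gave few calls. Of 10 measured microRNA and antisense genes, 0 were called in VE minus N (0 also at an unadjusted p below 0.05) and 1 in VE+N minus N, the HoxD antisense gene Haglr, which was below background in every line. Its difference of 0.51 (adjusted p = 0.0235) was lost without N replicate 1 (adjusted p = 0.143), N replicate 2 (adjusted p = 0.0696) or VE+N replicate 1 (adjusted p = 0.0899). The genes of the miR-10 family lie beside Hoxb4 and Hoxd4, and miR-10b is known to repress HOXD10 in human cells. The mature forms are printed, from RefSeq, because of that link to Hoxd10. They lie at chr11:96317186-96317208 and chr2:74726074-74726096 of GRCm38.p6, plus strand, with the seed, bases 2 to 8, in capitals.
mmu-miR-10a-5p: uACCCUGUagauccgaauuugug
mmu-miR-10b-5p: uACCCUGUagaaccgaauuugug

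Both share the seed and differ at 1 of 23 bases, U12A with the base of miR-10a first and positions counted from the 5′ end. The Mir10a probe set read 2.91 and 3.84, 2.87 and 3.22, and 3.06 and 2.85 on the VE+N-, VE- and N-labelled arrays, and the Mir10b probe set 2.66 and 3.03, 2.75 and 2.64, and 2.45 and 2.71. All were below background. These arrays are made for long transcripts, so the values say nothing of the mature microRNAs.

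Genes that flank the clusters were examined to see whether the differences ran past the cluster borders. Of 29 measured flanking genes 3 were higher and 3 lower in VE minus N, and 3 higher and 2 lower in VE+N minus N, or 20.7% and 17.2% beside 15.4% and 19.1% of all genes. Evx1 and Evx2, homeobox genes at the posterior ends of HoxA and HoxD, did not pass in any comparison. Mtx2, next to the anterior end of HoxD, gave 0.12 in VE+N minus N (adjusted p = 0.489) and −0.06 in VE minus N (adjusted p = 0.746). Skap2, beyond the anterior end of HoxA, was higher by 0.51 ± 0.135 in VE+N minus N (adjusted p = 0.0317), lost without N replicate 1 (adjusted p = 0.130), N replicate 2 (adjusted p = 0.120) or VE+N replicate 2 (adjusted p = 0.133). Jazf1, beyond the posterior end of HoxA, was at −0.77 in VE+N minus N and −0.87 in VE minus N (adjusted p = 0.00932 and 0.00623), where leaving out VE+N replicate 1 ended the first call (adjusted p = 0.0527) and VE replicate 2 the second (adjusted p = 0.0516). Copz2, near HoxB, was at 0.69 and 0.82 (adjusted p = 0.00204 and 0.00107). The largest differences in this list were those of Chn1 at −0.95 ± 0.0968 in VE minus N (adjusted p = 0.000411, with −0.49 in VE+N minus N) and Nfe2l2 at 0.97 ± 0.116 in VE+N minus N (adjusted p = 0.000749).

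A list of 20 genes reported as endothelial targets of Hox proteins was also counted. In VE minus N 1 was higher and 9 were lower, and in VE+N minus N 3 were higher and 9 lower, with medians of −0.16 and −0.23. The called shares were 50% and 60%, beside 15.4% and 19.1% of all genes. The list was chosen with earlier results of these data known, so its count is a description and no independent support. Among the lower genes were the receptor gene Cxcr4, at −2.10 ± 0.131 in VE+N minus N and −2.06 ± 0.131 in VE minus N (adjusted p = 2.11e-05 and 3.55e-05), the vessel-destabilising ligand gene Angpt2, at −1.81 and −1.5 (adjusted p = 3.70e-05 and 0.000145), and the urokinase receptor gene Plaur, at −1.54 and −1.30 (adjusted p = 4.69e-05 and 0.000162). Ephb4, a venous receptor and a reported target of HOXA9, averaged 10.78, 10.20 and 10.13 in the VE+N-, VE- and N-labelled lines, and was higher in VE+N minus N by 0.64 ± 0.102 (adjusted p = 0.00316). Nos3, the endothelial nitric oxide synthase gene and another reported target of HOXA9, went the other way, at −0.81 ± 0.101 in VE+N minus N (adjusted p = 0.000891) and −0.95 ± 0.101 in VE minus N (adjusted p = 0.00051). Kdr, the third of these targets, was higher in VE+N minus N by 0.53 ± 0.117 (adjusted p = 0.016), lost without N replicate 1 (adjusted p = 0.0689), N replicate 2 (adjusted p = 0.0966) or VE+N replicate 2 (adjusted p = 0.0674). Nrp1, a co-receptor for VEGF, was higher in VE+N minus N by 0.65 (adjusted p = 0.00295), and the ephrin gene Efna1 was at −1.23 there and −0.93 in VE minus N (adjusted p = 0.00117 and 0.00608, the second 0.0596 without VE replicate 2). Mmp2 went in opposite directions, at −0.93 ± 0.129 in VE+N minus N (adjusted p = 0.00164) and 0.98 ± 0.129 in VE minus N (adjusted p = 0.00159).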

How the data were processed

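The authors made the deposited log2 values with RMA in Partek 6.3, per the submitters' processing notes, which corrects background, normalizes by quantiles and summarizes probe sets. The range of the deposited values fits a log2 scale. Precision is limited by the 2 arrays of each line. Of 35556 probe sets, 21789 carried 1 gene symbol, and the brightest probe set was kept for each of 19936 genes. The test was limma (version 3.58.1, under R 4.3.3), fitted as line means over all 6 arrays, with Benjamini-Hochberg adjustment over all genes within a comparison. No filter on signal was applied. Values after ± are SE. The code was tested on simulated data.

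The Hox genes and the other lists were chosen with earlier results of these data known. Named are all Hox genes and, from each other list, up to 4 called members a comparison with the largest change. Outside that rule Meis1, Cdx1, Cdx2, Cdx4, Aldh1a2, Evx1, Evx2, Mtx2, Mir10a, Mir10b, Nos3 and the cell type markers were chosen after their values were seen. Alternatives were median centring, repeated quantile normalization, a trended robust prior, array weights, 4 arrays only, a replicate block, removal of the dimmest 25% of genes, the mean of a gene's probe sets, treat against 1.5-fold, each array left out and the methods' analysis of variance. Promoter and microRNA sequences are RefSeq's (GRCm38.p6); the values name no build.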

Additional observations from a re-analysis of the deposited data

How the results depend on the processing

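In VE minus N the 9 Hox calls became 5 with the methods' analysis of variance (4 of the 9, plus Hoxb3) and 1 with treat against 1.5-fold, and 4 to 8 with 1 array left out. In VE+N minus N the 12 calls became 5 with the analysis of variance (4 of the 12, plus Hoxc4) and 2 with treat, and 6 to 11 with 1 array left out. In VE+N minus VE the 2 calls became 5 with median centring, 4 with the trended robust prior, 1 with array weights, 1 with only the 4 arrays compared, 5 without the dimmest 25% of genes, 1 with the analysis of variance (Hoxc4, with both Hoxa2 and Hoxd4 lost) and 0 with treat, and 1 to 4 with 1 array left out. Median centring moved the median Hox difference to −0.19 in VE minus N and 0.17 in VE+N minus VE. Over all genes it moved the share of higher calls in VE minus N to 34.9% (54.8% as deposited) and in VE+N minus VE to 60.8% (42.3%). With the 99th percentile as background level, 18 Hox genes were above it in the VE+N line, 18 in the VE line and 21 in the N line. With a replicate block, 8 Hox genes were called in VE minus N, 12 in VE+N minus N and 2 in VE+N minus VE. Same-numbered arrays correlated at −0.00504 to 0.123 in their deviations from line means over genes. With so few arrays this cannot show whether same-numbered arrays were processed together. Over the Hox genes called in a comparison and the other called genes named by the rule, no single gene call changed direction under an alternative. The cause of these changes was not tested, beyond the fewer arrays or stricter null of some settings. Of the 37 Hox genes, 9 were not above background on all 6 arrays, 6 of them in HoxC.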
